A study of Solanum tuberosum with 8 samples.

Results

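The genotype by drought interaction of potato (*Solanum tuberosum*) leaves was examined, that is, the difference between the drought response of line *Stpfld252* (Fld) and the drought response of its wild-type siblings (WT). It was computed as (Fld under drought minus Fld in control) minus (WT under drought minus WT in control) on log2 intensities, and all 8 of the 8 arrays of the series entered it, 2 per group. Fld plants carry a cyanobacterial flavodoxin fused to a plastid transit peptide and driven by a constitutive cauliflower mosaic virus promoter, in cultivar Solara. *Stpfld252* is a single transformed line, chosen by the authors for its high Fld levels and its drought protection. Effects of flavodoxin and of that particular line cannot be told apart. The 4 groups were Fld under drought (Fld_D), Fld in control (Fld_C), WT under drought (WT_D) and WT in control (WT_C). All plants were 4 weeks old and grew from tuber slices in soil pots. Drought was 3 days without water while controls were watered as before, and young, fully expanded leaves of 10 plants per group were sampled. Each group was hybridized as 2 pools from independent experiments.

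Flavodoxin is an electron carrier of cyanobacteria and some algae that can stand in for ferredoxin, the iron-sulphur protein that hands electrons from photosystem I to carbon, nitrogen and sulphur assimilation. Chloroplast redox state is a known signal for nuclear genes, and water deficit limits CO2 entry while light is still absorbed. A difference of responses shows which transcripts changed between control and drought by unequal amounts in the lines. It can come from unequal levels of the lines under drought, in watered plants, or in both.

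Each array held 42034 probes. All drought arrays lay on one slide and all control arrays on the other, so slide and treatment cannot be told apart in the response of a single line. An additive slide effect cancels in the difference of responses. Median spot intensity was 3.64- to 4.45-fold that of the local background, 77.8% to 80.7% of the probes of an array were well above background by the scanner software's flag, and 0 spots were saturated. The median SD between the 2 arrays of a group was 0.0589 to 0.0931 on the log2 scale. Of 44 probes described as chlorophyll a/b binding protein or Rubisco small chain, which mark leaf tissue, 40 were well above background on all arrays. Patatin marks tubers, but the 10 probes with patatin in their description include a patatin-like phospholipase, so they are not all tuber markers. Of the 10, 4 were well above background on all arrays, 2 were called higher and 2 lower, and their part in the results was not tested. No probe could check the transgene, since 0 of the described probes named flavodoxin.

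A probe was called when limma's moderated test over all 36435 tested probes gave an adjusted p under 0.05 and the difference of responses was over 1 on the log2 scale, which is 2-fold. A probe is called higher where the response was more positive in Fld than in WT, and lower where it was more negative. Of the tested probes, 4518 were called (12.4%), 2237 of them higher (6.14%) and 2281 lower (6.26%). The difference exceeded 8-fold, 3 on the log2 scale, for 108 probes in the higher direction and 165 in the lower. For all 4518 called probes, the difference kept its sign over the 16 ways of taking 1 array from each group. This adds little to the calls, which were made on the same arrays and already require a large difference and a small spread. The calls covered 4107 contigs or single sequences. Of the 310 contig numbers with several called probes, all called probes were higher in 152 and lower in 138, and 20 held both directions. Among the called probes, 3738 were well above background on all arrays, and of the 32120 probes that passed the filter on dim signal in all 4 groups 12.1% were called.

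The called probes took several shapes. For 2568 of them (56.8%) the response was smaller in Fld than in a WT response of over 2-fold, and in 1793 of these the Fld response stayed under 2-fold. These comprised 1391 probes with lower signal under drought in WT and 1177 with higher signal. The response was larger in Fld for 936 probes (20.7%), among which 602 had lower signal under drought in Fld and 334 had higher. Both lines changed over 2-fold in opposite directions for 112 probes, 48 of them with higher signal under drought in Fld and lower in WT. For 902 probes neither line changed over 2-fold.

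**Figure D1:**
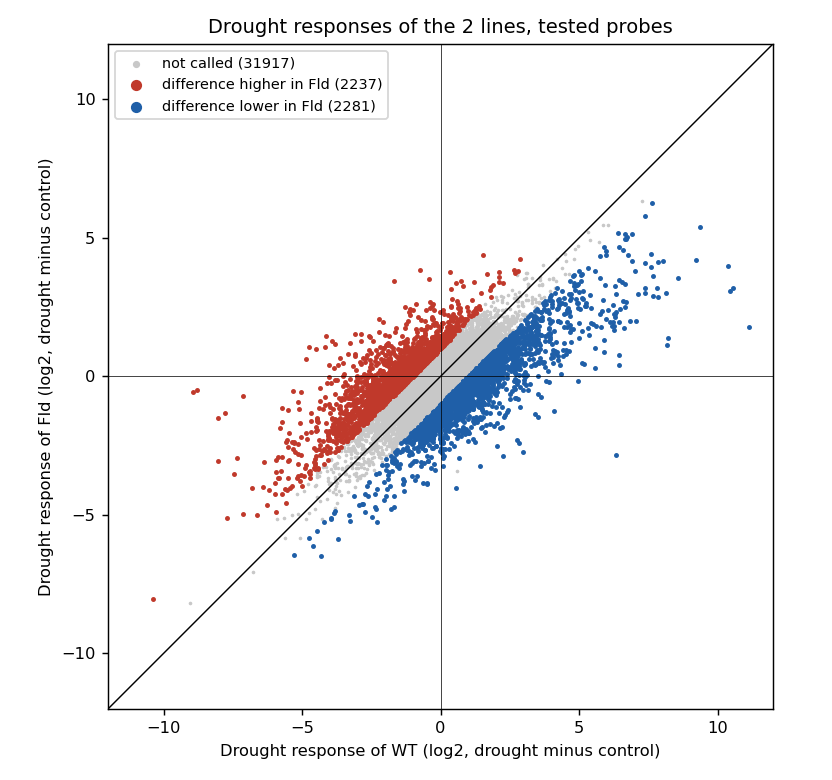
Drought response of Fld (y axis) against that of WT (x axis), both as log2 drought minus control, for the 36435 tested probes; the diagonal marks equal responses. The 2237 probes called higher lie above the diagonal and the 2281 called lower lie below it. The probes furthest from the diagonal include the nitrate reductases at the left, with WT responses of -8.92 and -8.8.

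The same calls can be read from the side of the lines. Fld and WT were over 2-fold apart under drought and not in control for 2063 called probes (45.7%), with Fld above WT in 1061 and below it in 1002. They were over 2-fold apart in control and not under drought for 786 probes (17.4%), with Fld above WT in 497 and below it in 289. In 172 probes the order of the lines was over 2-fold in both treatments and reversed between them. The remainder comprised 141 probes with the lines over 2-fold apart in the same direction in both treatments and 1356 with them under 2-fold apart in both.

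The array probes of 10 transcripts had qRT-PCR primers, and 4 primer pairs of called probes are shown. The study's primer list names the probe of each pair, and the primers were not matched to probe sequences. The pairs are written 5′ to 3′, forward primer first, as in the study's primer list.
GBSSI forward: tggcaagtggagcgatttcttc
GBSSI reverse: acctgccaagaaatgggagaca
ATHB7 forward: agcatgaatccctcctcatcca
ATHB7 reverse: ctgctgtcttcacacaaagcca
NR3 forward: acttgctaacgctgaagcatgg
NR3 reverse: tcaacgtgtaaggtcgctgagt
Fd1 forward: agggctggttcttgctcatctt
Fd1 reverse: tcctgcagcttcttggtcatca
GBSSI is granule-bound starch synthase, which makes amylose. Its probe, MICRO.920.C2, stood at log2 intensities of 13.25 and 13.39 in Fld_D, 12.93 and 12.89 in Fld_C, 11.7 and 11.5 in WT_D, and 13.46 and 13.68 in WT_C. The WT drought arrays lay below all others, and the responses differed by 2.39 ± 0.153 (SE, limma adjusted p 4.7e-05). ATHB7 is a homeodomain-leucine zipper transcription factor known as drought- and abscisic acid-inducible in *Arabidopsis*. Its probe stood at 12.65 and 12.76 in Fld_D, 8.68 and 8.58 in Fld_C, 14.54 and 14.46 in WT_D, and 7.14 and 7.07 in WT_C. Both lines had more signal under drought, by 4.08 in Fld and 7.39 in WT, a difference of -3.31 ± 0.115 (adjusted p 5.4e-06). Fd1 is ferredoxin I (MICRO.11295.C1), with 13.61 and 13.71 in Fld_D, 13.61 and 13.56 in Fld_C, 12.47 and 12.54 in WT_D, and 13.7 and 13.51 in WT_C. Only the WT drought arrays stood apart, and the responses differed by 1.17 ± 0.126 (adjusted p 0.00046). After median scaling it was 0.98 and no longer called. The NR3 probe, MICRO.8565.C1, is named nitrate reductase 3 in the primer list but nitrite reductase in the study's annotation. Its difference was 1.24 ± 0.116 (adjusted p 0.00025), with drought minus control of -0.62 in Fld and -1.86 in WT.

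Of the other 6 qRT-PCR genes, 2 were called. They were psbY, a photosystem II core protein (MICRO.5278.C1, difference 1.01), and ACO1, an oxidase of ethylene synthesis (MICRO.2939.C2, 1.04), both just inside the limit of 1. Without Fld_D replicate 1 or without WT_D replicate 1, psbY fell short of it at 0.93 and 0.98, and after median scaling psbY and ACO1 did at 0.79 and 0.94. The photosystem I subunit psaK (MICRO.1823.C4) differed by 0.61, with a 95% interval of 0.06 to 1.16 (adjusted p 0.078), and GAST1 (MICRO.11045.C2), a gibberellin-regulated gene with drought minus control of -8.19 in Fld and -9.05 in WT, by 0.87 (adjusted p 0.0076, and 1.05, called, without Fld_D replicate 2). The proteasome subunits PSA2B and RPN9b differed by 0.07 and 0.23, with intervals of -0.17 to 0.31 and -0.02 to 0.48.

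The highest differences among called probes with signal well above background on every array were those of nitrate reductase. Nitrate reductase, the cytosolic enzyme that reduces nitrate to nitrite, is known for its regulation by light, sugars and nitrate. Probe MICRO.18049.C1 stood at 12.76 and 12.8 in Fld_D, 13.34 and 13.35 in Fld_C, 6 and 5.85 in WT_D, and 14.83 and 14.88 in WT_C. Drought minus control was -0.57 in Fld against -8.92 in WT, so that the responses differed by 8.36 ± 0.112 (adjusted p 3.1e-07), or 328-fold. Probe MICRO.390.C1, a second nitrate reductase sequence, showed the same layout with a difference of 8.32 ± 0.151. In both, the order of the lines turned round, as Fld minus WT was 6.85 and 6.68 under drought and -1.51 and -1.64 in control. The remaining nitrate reductase probe, POCD505TP, was not well above background on either WT_D array, where its mean was at least 134-fold lower than in WT_C, while Fld_D and Fld_C averaged 8.44 and 9.13.

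Nitrite reductase, which uses ferredoxin to make ammonium in the plastid, also had differences called higher. Probe MICRO.10331.C1 stood at 13.24 and 13.34 in Fld_D, 12.24 and 12.19 in Fld_C, 8.8 and 8.99 in WT_D, and 13.66 and 13.65 in WT_C. Its responses were 1.07 in Fld and -4.76 in WT, in opposite directions, and differed by 5.83 ± 0.125 (adjusted p 1.5e-06). MICRO.4468.C1, also nitrite reductase, differed by 5.61 ± 0.194. The remaining probe annotated as nitrite reductase, the NR3 probe MICRO.8565.C1, differed by 1.24, with lower signal under drought in both lines. Glutamine synthetase had 2 of 3 probes called higher and 0 lower, with a median difference of 1.12. NADH-dependent glutamate synthase (MICRO.292.C1), which acts further along the pathway, went the other way with -1.17 ± 0.12, and the ferredoxin-dependent form (MICRO.8806.C1) was not called at 0.88. Over the 13 probes of nitrogen metabolism, 8 were called higher and 1 lower, with a median difference of 1.24 against 0.01 over all tested probes. Members of this and the other lists below come from the study's tables of changed transcripts on these arrays, where 20.9% of 5217 probes were called higher and 26.2% lower, so their counts are read against these shares and are no independent evidence of direction.

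The lowest difference among these probes was that of asparagine synthetase, the enzyme that stores ammonium as asparagine and is known to be induced in darkness and sugar shortage. Probe MICRO.3150.C2 stood at 10.81 and 10.9 in Fld_D, 13.7 and 13.73 in Fld_C, 17.1 and 17.07 in WT_D, and 10.73 and 10.76 in WT_C. The lines responded in opposite directions, by -2.85 in Fld and 6.35 in WT, and the difference was -9.2 ± 0.101 (adjusted p 1.5e-07). Fld minus WT was -6.23 under drought and 2.97 in control.

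Enzymes of amino acid breakdown shared this layout in part. Lysine-ketoglutarate reductase/saccharopine dehydrogenase, which starts lysine breakdown, was represented by MICRO.7729.C1 at 10.45 and 10.34 in Fld_D, 13.15 and 13.09 in Fld_C, 14.81 and 14.87 in WT_D, and 11.84 and 11.86 in WT_C. Its responses were -2.72 in Fld and 2.99 in WT, a difference of -5.71 ± 0.106. Probes MICRO.7180.C1 and MICRO.4464.C2 of the same enzyme differed by -5.25 and -5.06, also with opposite responses. Branched-chain aminotransferase acts in leucine, isoleucine and valine turnover, and its probe is placed under amino acid synthesis rather than degradation. It was different in that Fld minus WT was only -0.03 in control. MICRO.10926.C1 stood at 7.12 and 6.83 in Fld_D, 5.49 and 5.7 in Fld_C, 13.81 and 13.88 in WT_D, and 5.61 and 5.65 in WT_C, and its responses of 1.38 and 8.22 differed by -6.84 ± 0.166. Over amino acid degradation, 18 of 44 probes were called lower and 7 higher (median difference -0.37). Isovaleryl-CoA dehydrogenase of leucine breakdown (bf_suspxxxx_0054f04.t3m.scf) was among the 7, at 1.91.

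Glutamate decarboxylase, which makes 4-aminobutyrate, had probes at both ends. MICRO.3974.C4, described as isozyme 3, stood at 10.67 and 10.75 in Fld_D, 9.7 and 9.75 in Fld_C, 5.85 and 5.97 in WT_D, and 10.51 and 10.27 in WT_C, a difference of 5.47 ± 0.139. MICRO.6945.C1, described by its likeness to the tomato enzyme, stood at 10.32 and 10.12 in Fld_D, 8.22 and 8.22 in Fld_C, 13.15 and 13.12 in WT_D, and 6.25 and 6.31 in WT_C, a difference of -4.86 ± 0.123. Signal was thus lower under drought in WT for one sequence and higher for the other, and in Fld it was higher for both, by 0.99 and 2. Of the 6 probes of the category, 3 were called higher and 1 lower. Amino acid synthesis as a whole had 13 of 74 probes higher and 23 lower, and amino acid transporters 8 of 35 higher and 12 lower. Proline transporter 3 (MICRO.17235.C1) was among the higher ones at 2.47, and a pair of probes of an *Arabidopsis*-like amino acid transporter (MICRO.14769.C1 and POABJ29TP) were the lowest at -4.47 and -4.45.

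**Figure D2:**
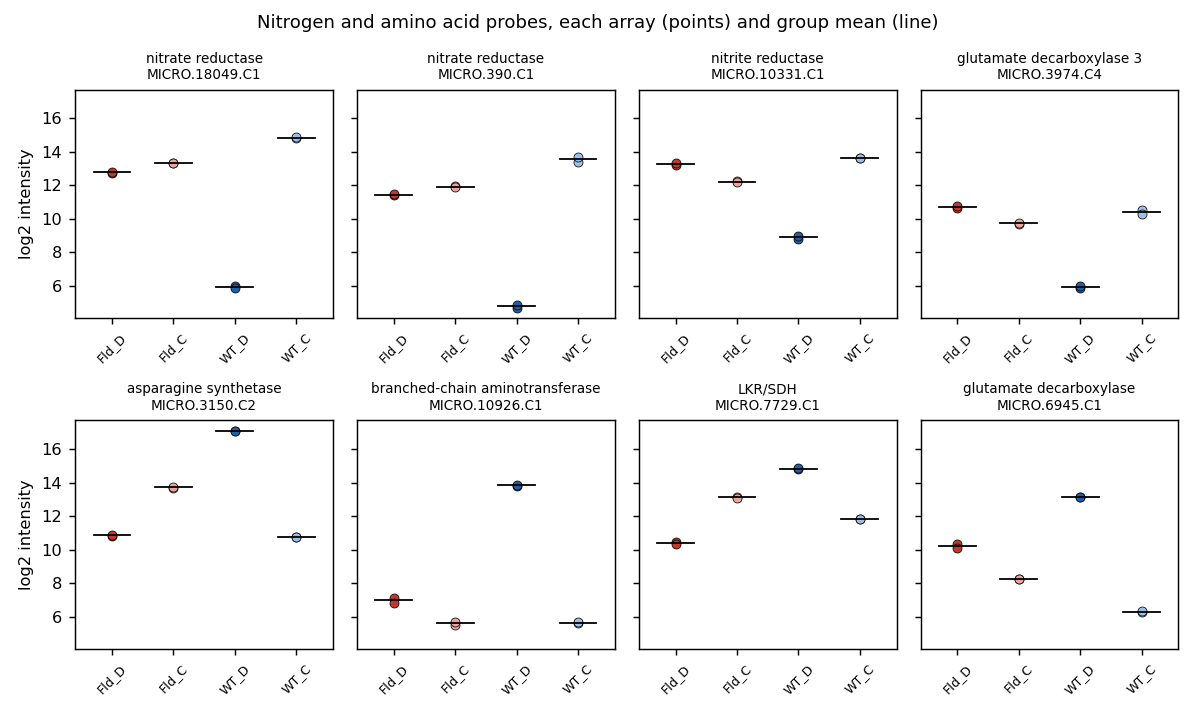
Log2 intensity (y axis) of 8 nitrogen and amino acid probes on every array, with points for the arrays of Fld_D, Fld_C, WT_D and WT_C and a line for each group mean. In both nitrate reductase panels WT_D is the lowest group by far and WT_C the highest, and in the asparagine synthetase panel Fld_D, at 10.81 and 10.9, lies far below WT_D, at 17.1 and 17.07.

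Sulphur, the other element whose assimilation draws on plastid reductant, had 10 of 23 probes called higher and 2 lower (median difference 0.92). Adenylylsulphate reductase (APR), the step that reduces activated sulphate, had 3 of 5 probes higher with median responses of 1.72 in Fld and 0.24 in WT. The sulphate transporter MICRO.14960.C1 stood at 13.34 and 13.32 in Fld_D, 12.5 and 12.6 in Fld_C, 10.38 and 10.43 in WT_D, and 13.12 and 12.97 in WT_C. The WT drought arrays were the low ones, and the difference was 3.42 ± 0.115. A sulphate transporter at the other end, MICRO.18035.C1, differed by -2.68.

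In photosynthesis the called probes were mostly higher. Rubisco small subunits, the nuclear-coded chains of the CO2-fixing enzyme, had 6 of 8 probes called higher and 0 lower, with median responses of -0.21 in Fld and -1.97 in WT. MICRO.4165.C11 stood at 17.35 and 17.37 in Fld_D, 17.54 and 17.58 in Fld_C, 14.53 and 14.51 in WT_D, and 17.4 and 17.39 in WT_C. Of its 4 groups only WT_D was apart, by a difference of responses of 2.68 ± 0.0948 (adjusted p 5.5e-06). The Calvin cycle and photorespiration list held 22 of 42 probes higher and 0 lower, with a median difference of 1.03. Among the light reactions (42 of 108 higher, 3 lower, median 0.9), the antennae of photosystem II had 16 of 37 probes higher and those of photosystem I had 3 of 7, with 0 lower in either. The core subunits of photosystem I had 6 of 14 higher and 0 lower and those of photosystem II 5 of 16 higher and 1 lower. The antenna probe bf_mxlfxxxx_0014b07.t3m.scf, a chlorophyll a/b binding protein, stood at 13.41 and 13.49 in Fld_D, 15.36 and 15.24 in Fld_C, 8.35 and 8.74 in WT_D, and 14.35 and 14.3 in WT_C. Drought minus control was negative in both lines, at -1.85 in Fld and -5.79 in WT, and the difference was 3.94 ± 0.183.

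The lowest difference in the light reactions was -3.47 ± 0.126, for bf_stolxxxx_0018c02.t7m.scf of the photosystem II core subunits. No protein was named for it, and its responses were 1.25 in Fld and 4.72 in WT. The probes called lower in the light reactions also included the non-photosynthetic ferredoxin bf_mxflxxxx_0070d09.t3m.scf at -1.44, a form known from roots and other heterotrophic tissue. Fld lay above WT there by 1.45 under drought and 2.9 in control. Another probe of that ferredoxin, MICRO.9842.C1, was well above background on 0 of 2 WT_C and 1 of 2 WT_D arrays, so that its difference is not given, and it stood at least 7.71-fold higher in Fld_C than in WT_C. Of the 7 ferredoxin probes, 3 were called higher and 2 lower. Beside Fd1, the higher ones were the ferredoxin-related cSTB41K8TH at 1.58 and MICRO.5835.C1 at 1.18 (0.98 and not called without Fld_C replicate 1, and 0.99 and not called after median scaling). A putative ferredoxin, bf_mxflxxxx_0058h06.t3m.scf, was not called at -0.91, but was after median scaling at -1.04. The ferredoxin-NADP reductases, which pass electrons from ferredoxin to NADP, were not called (MICRO.4050.C1 at 0.83 and MICRO.609.C2 at -0.2). Tetrapyrrole synthesis, which makes chlorophyll, had 11 of 23 probes higher and 1 lower, an aminolevulinate dehydratase (POADD78TV, -1.69). The higher probes named by rule in this list were not described as enzymes of the pathway. They were MICRO.13761.C1, a hypothetical protein (3.53), and BPLI6G8TH, an ankyrin repeat protein (2.99), both also placed under stress.

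In starch and sucrose metabolism, 15 of 70 probes were called higher and 23 lower, and steps of one pathway were unequal. Starch synthases had 6 of 8 probes called higher and 0 lower, and ADP-glucose pyrophosphorylase, which makes their substrate, 3 of 6 higher and 0 lower, whereas starch branching enzymes had 0 of 4 higher and 2 lower. Sucrose synthase, which cleaves sucrose for sink metabolism, had 9 of 11 probes lower and 1 higher, with median responses of 0.49 in Fld and 3.45 in WT. Its probe MICRO.1765.C1 stood at 9.33 and 9.72 in Fld_D, 7.51 and 7.6 in Fld_C, 12.38 and 12.21 in WT_D, and 5.97 and 6.16 in WT_C. The lines differed in both treatments and in opposite order, and the difference was -4.26 ± 0.203. Invertases, which also cleave sucrose, had 1 of 7 probes higher and 0 lower. Beta amylases, which release maltose from starch, had 4 of 7 probes lower and 0 higher. In minor carbohydrates, 7 of 10 probes of putative raffinose synthases were lower and 0 higher (median -2.17), whereas trehalose-6-phosphate phosphatases had 5 of 7 higher and 2 lower and galactinol synthases 2 of 5 in each direction.

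In the cell wall, pectin methylesterases, which demethylate pectin, gave the next highest differences after these nitrate reductases among called probes well above background on all 8 arrays. MICRO.10963.C2 stood at 12.74 and 12.64 in Fld_D, 14.29 and 14.08 in Fld_C, 7.31 and 7.24 in WT_D, and 15.27 and 15.31 in WT_C. Drought minus control was negative in both lines, at -1.5 in Fld and -8.02 in WT, a difference of 6.52 ± 0.129 (adjusted p 1.4e-06). MICRO.4403.C1, described as potato pectin methyl esterase, differed by 6.46 ± 0.109. Of 30 probes of pectin methylesterases, 10 were called higher and 2 lower, whereas acetylesterases had 1 of 8 higher and 4 lower. The median over both, 0.43, was -0.12 with probes well above background on all arrays. UDP-glucose epimerases, which make UDP-galactose for wall polymers, had 6 of 6 probes lower, with median responses of -0.81 in Fld and 1.36 in WT. The cellulose synthase-like probe STMGM17TV stood against its category at 4.97 ± 0.197, with responses of 1.17 in Fld and -3.8 in WT, while of all 26 probes of cellulose synthases 2 were higher and 8 lower. Other cell wall genes together had 35 of 216 higher and 70 lower.

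**Figure D3:**
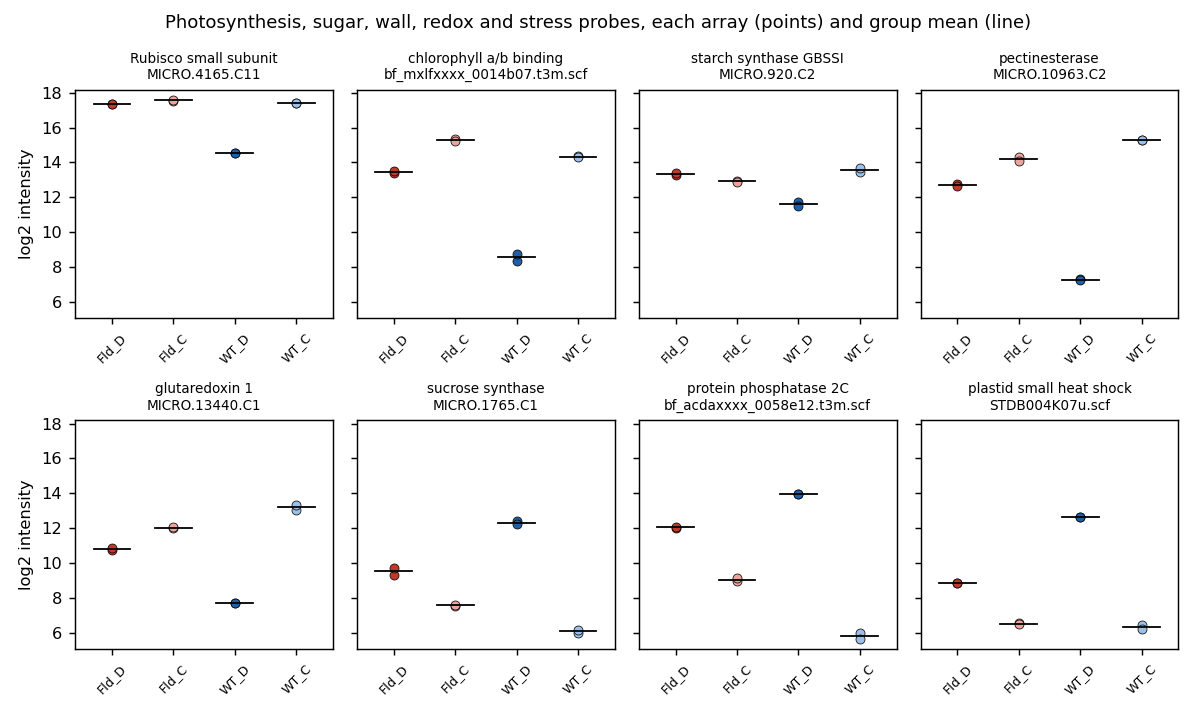
Log2 intensity (y axis) of 8 probes of photosynthesis, starch and sucrose, cell wall, redox and stress on every array, with points for the arrays of Fld_D, Fld_C, WT_D and WT_C and a line for each group mean. In the Rubisco panel WT_D, at 14.53 and 14.51, lies below all other groups, and in the sucrose synthase panel WT_D is the highest group and WT_C the lowest.

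Redox proteins had 22 of 57 probes higher and 11 lower (median 0.6). Glutaredoxins, small glutathione-dependent disulphide reductases, had 7 of 11 probes higher and 3 lower, with a median difference of 3.05. Glutaredoxin 1 (MICRO.13440.C1) stood at 10.76 and 10.85 in Fld_D, 12.02 and 12.04 in Fld_C, 7.71 and 7.67 in WT_D, and 13.03 and 13.35 in WT_C, and differed by 4.27 ± 0.157. The glutaredoxin-like probe bf_mxlfxxxx_0015a10.t3m.scf had opposite responses of 2.06 in Fld and -2.24 in WT, and Fld minus WT was 1.84 under drought and -2.46 in control. Thioredoxins had 4 of 15 probes higher and 1 lower, that one being thioredoxin 2 (MICRO.8643.C1, -2.47). Dismutases and catalases, which remove superoxide and hydrogen peroxide, had 4 of 8 higher and 0 lower. The general ascorbate and glutathione category went the other way, with 2 of 10 higher and 6 lower (median -1.17), while its ascorbate subcategory had 3 of 5 higher and 1 lower.

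Abscisic acid is the hormone of water deficit, and genes placed under drought and salt stress were called equally often in both directions, 6 of 19 each. The protein phosphatase 2C probe bf_acdaxxxx_0058e12.t3m.scf, of a family known as negative regulators of abscisic acid signalling, stood at 12.02 and 12.07 in Fld_D, 8.96 and 9.12 in Fld_C, 13.98 and 13.95 in WT_D, and 5.99 and 5.65 in WT_C. Its responses were 3.01 in Fld and 8.15 in WT and differed by -5.14 ± 0.17, with Fld minus WT at -1.92 under drought and 3.22 in control. The same order, Fld above WT in control and below it under drought, held for ATHB-12 (MICRO.6964.C1, -4.59), a homeodomain factor related to ATHB7, and for ASR2 (MICRO.478.C4, -5.06), a ripening- and water-stress-induced protein. Abscisic acid genes overall had 14 of 40 probes lower and 8 higher, and within them signal transduction had 9 of 21 lower and 4 higher.

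Late embryogenesis abundant proteins, which protect cells during drying, were divided, with 10 of 23 lower and 8 higher. MICRO.17165.C1 stood at 8.54 and 8.49 in Fld_D, 5.44 and 5.82 in Fld_C, 12.41 and 12.44 in WT_D, and 4.92 and 4.61 in WT_C, a difference of -4.77 ± 0.206. Among the higher ones, MICRO.1857.C2, described as induced upon tuberization, differed by 1.98, with responses of 0.52 in Fld and -1.46 in WT. Over the whole list the differences ran from -7.38 to 3.34. The median of this list, 0.56, had the sign opposite to the larger count of calls and ranged over 0.13 to 0.89 under the alternatives and over 0.39 to 0.72 with an array left out.

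Heat stress genes, mainly chaperones and their partners, had 58 of 168 probes lower and 22 higher (median -0.67). The plastid small heat shock protein STDB004K07u.scf stood at 8.84 and 8.83 in Fld_D, 6.53 and 6.48 in Fld_C, 12.64 and 12.64 in WT_D, and 6.42 and 6.18 in WT_C. Fld minus WT was -3.81 under drought and 0.2 in control, and the responses differed by -4.01 ± 0.129. Heat shock transcription factors had 6 of 16 higher and 4 lower. Of 23 further probes of protein folding, 11 were lower and 0 higher. Pathogenesis-related proteins had 35 of 82 lower and 8 higher, of which thaumatin-like proteins gave 12 of 22 lower and 3 higher and proteinase inhibitors outside the trypsin inhibitor category 8 of 14 lower and 0 higher. Trypsin inhibitors had 3 of 9 lower and 2 higher. For those 14 proteinase inhibitors the median of Fld minus WT was 0.35 under drought and 1.53 in control. A chitinase, MICRO.556.C1, was on the other side at 3.18.

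Of fatty acid synthesis and wax, 30 of 72 probes were lower and 5 higher (median -0.79), and the 12 wax probes gave 9 lower and 0 higher, with median responses of 0.31 in Fld and 1.97 in WT. Wax synthase (MICRO.1545.C1), which makes the esters of the leaf cuticle, stood at 10.09 and 9.8 in Fld_D, 8.05 and 8.09 in Fld_C, 12.2 and 12.33 in WT_D, and 7.7 and 7.5 in WT_C. Signal was higher under drought in both lines, by 1.87 in Fld and 4.66 in WT. The plastid beta-ketoacyl-ACP synthase II (MICRO.13550.C1) of fatty acid elongation had opposite responses of -1.09 in Fld and 1.35 in WT.

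**Figure D4:**
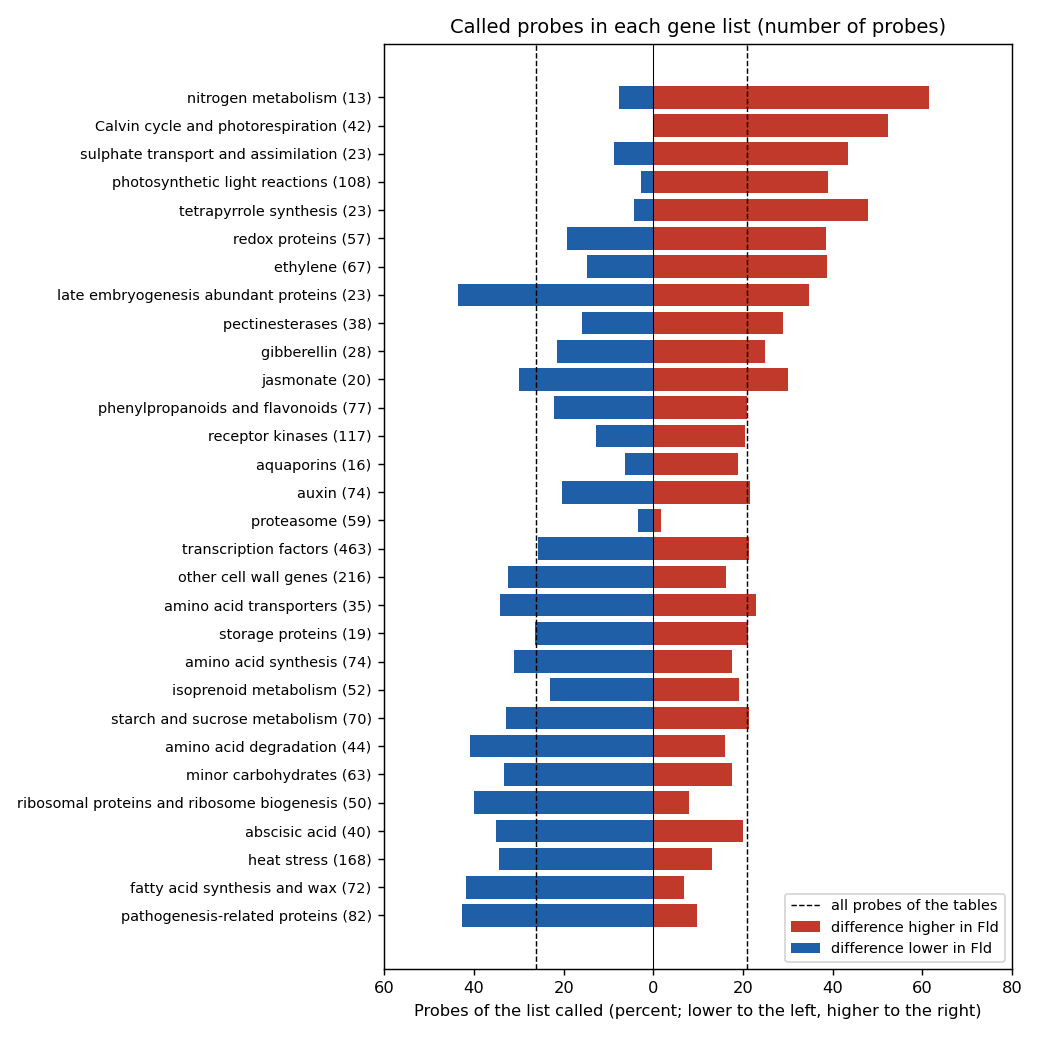
Percent of the probes of each gene list called higher (right, red) and lower (left, blue), with the number of probes in parentheses; the dashed lines mark the shares over all 5217 probes of the study's tables, 20.9% higher and 26.2% lower. Nitrogen metabolism and the Calvin cycle reach furthest to the right, at 61.5% and 52.4%, and late embryogenesis abundant and pathogenesis-related proteins furthest to the left, at 43.5% and 42.7%.

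Hormone genes beyond abscisic acid differed by hormone. Ethylene had 26 of 67 probes higher and 10 lower, and its signal transduction members 15 of 24 higher and 1 lower. For those the median of Fld minus WT was 0.18 under drought and -1.32 in control. Ethylene response factor 5 (MICRO.773.C2) stood at 7.1 and 7.14 in Fld_D, 6.61 and 6.6 in Fld_C, 7.25 and 7.29 in WT_D, and 9.92 and 10.05 in WT_C, so the WT control arrays were the high ones and the other groups lay close together. Its difference was 3.23 ± 0.108. Gibberellin 20-oxidase (MICRO.6620.C1), which makes active gibberellin precursors, differed by 3.44, and gibberellin 2-oxidase (cSTB42I1TH), which inactivates gibberellin, by -2.83. In jasmonate synthesis, 12-oxophytodienoate reductase (MICRO.10473.C1) differed by 2.75 and a lipoxygenase (MICRO.11738.C1) by -1.87, in a list of 20 probes with 6 called in either direction. Gibberellin genes overall had 7 of 28 higher and 6 lower. Auxin genes had 16 of 74 higher and 15 lower, with the auxin-response category probe MICRO.12040.C3, for which no protein was named, at 5.49 and the auxin-repressed protein MICRO.13674.C1 at -3.9.

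Transcription factors had 99 of 463 probes higher and 119 lower, near the shares over all probes of the tables, but families were unequal. The bZIP category, in which the homeodomain factor ATHB7 is also placed, gave 14 of 28 lower and 3 higher (median -1.11). WRKY factors gave 10 of 20 lower and 1 higher, and HAP2 subunits of the CCAAT-binding factor 7 of 11 lower and 1 higher. MYB factors gave 14 of 34 higher and 9 lower, and NAC factors 7 of 21 higher and 5 lower. The bZIP-type factor TAF-3 (MICRO.6937.C2) stood at 5.94 and 5.85 in Fld_D, 5.03 and 5.82 in Fld_C, 9.65 and 9.72 in WT_D, and 4.44 and 4.74 in WT_C. Its Fld_C arrays had an SD of 0.553, more than in the other probes named, and the difference was -4.63 ± 0.331 (adjusted p 7.6e-05).

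The proteasome had another layout, as 56 of its 59 probes were not called. The lines were apart in both treatments by nearly the same amount, with a median line difference of 1.53 under drought and 1.52 in control, and median responses were 0.2 in Fld and 0.1 in WT. PSA2B (MICRO.1887.C4) stood at 14.8 and 14.7 in Fld_D, 14.61 and 14.58 in Fld_C, 13.49 and 13.53 in WT_D, and 13.45 and 13.41 in WT_C. Fld was the higher line on every array. The 3 called members were an alpha subunit (bf_suspxxxx_0032b03.t3m.scf, 1.01, and 0.99 without Fld_D replicate 1 or Fld_C replicate 1), a proteasome-related protein (MICRO.7259.C1, -1.42) and POAC220TV, for which no protein was named (-1.53). In MICRO.7259.C1 and POAC220TV, Fld minus WT was 0.24 and 0.24 under drought and 1.66 and 1.77 in control. Ribosomal proteins and ribosome biogenesis had 20 of 50 lower and 4 higher, with median line differences of 0.06 under drought and 0.41 in control. Aquaporins, the water channels of the plasma membrane and vacuole, had 3 of 16 called higher and 1 lower, so that 12 were not called.

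In secondary metabolism, phenylpropanoids and flavonoids had 16 of 77 probes higher and 17 lower. Isoflavone reductase-like proteins gave 6 of 8 higher and 0 lower, led by MICRO.3605.C1, a phenylcoumaran benzylic ether reductase homolog of lignan synthesis. It stood at 11.07 and 11.14 in Fld_D, 11.37 and 11.29 in Fld_C, 8.19 and 8.4 in WT_D, and 11.29 and 11.31 in WT_C, a difference of 2.78 ± 0.13 that lay in the WT drought arrays. The lowest differences named in this list were those of a cinnamoyl-CoA reductase (POCB711TP, -2.31) and a cinnamyl-alcohol dehydrogenase (bf_acdaxxxx_0061b09.t3m.scf, -2.01), both of lignin synthesis. Cinnamoyl-CoA reductases had 2 of 5 probes higher and 3 lower, and the cinnamyl-alcohol dehydrogenases of the lignin category 0 of 12 higher and 4 lower, with a median of 0.19. Cinnamyl-alcohol dehydrogenases placed outside the lignin category went the other way, with 4 of 7 higher and 1 lower and a median of 1.36. Isoprenoid metabolism had 10 of 52 higher and 12 lower, including beta-amyrin synthase (STMGM67TV, -1.73) of triterpene synthesis. Receptor kinases had 24 of 117 higher and 15 lower. Storage proteins had 4 of 19 higher and 5 lower, and the legumin-like MICRO.3211.C1 differed by 2.89 ± 0.109, with drought minus control of -0.16 in Fld and -3.06 in WT.

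**Figure D5:**
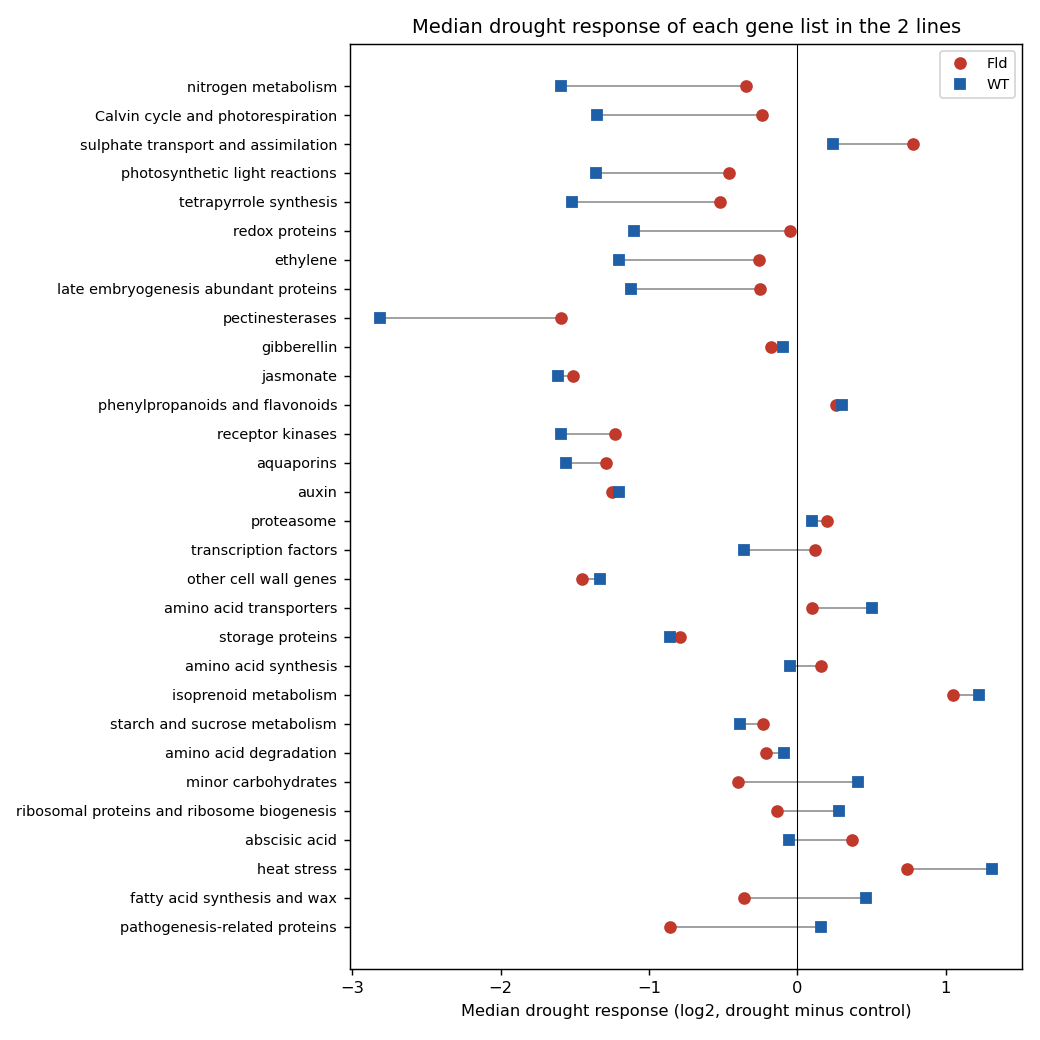
Median drought response (x axis, log2 drought minus control) of the probes of each gene list in Fld (red circles) and WT (blue squares), ordered by the median difference. The responses in the Calvin cycle list were -0.24 in Fld and -1.35 in WT, those in the heat stress list 0.74 in Fld and 1.31 in WT, and those of the proteasome lie next to each other near 0.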

How the data were processed

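The authors deposited, for each array, Agilent scanner output with median spot and local background intensity, which they had not normalized between arrays, and a table of log2 values that they had made with limma (normexp, quantile scaling, dim probes removed). The feature-extraction software version in the file headers differs from the one in the study's methods. From the intensities, normexp (offset 0) on median signals and quantile normalization were run with limma 3.58.1 in R 4.3.3. Probes over 1.1 times the 95th percentile of 153 negative control spots on both arrays of any group were tested in 1 linear model with a mean for each of the 4 groups. With 2 arrays per group, p-values measure the spread between pools. Adjusted p-values are Benjamini-Hochberg rates over all tested probes. The array files pair no probe with a gene, so descriptions and the 30 MapMan lists came from the study's tables, in part shortened. Members of lists and the lists were chosen with earlier results of these data known. Named probes are well above background on all arrays, with 1 sign over all array combinations and 1 probe per contig number: the 5 highest and 5 lowest differences, the 12 highest and 12 lowest with a protein name, up to 2 each way per list, and whatever their result the qRT-PCR genes and the nitrate reductase, asparagine synthetase and ferredoxin probes. Some named under a list are left out. Bounds on folds use the lowest signal among probes well above background on an array, or the probe's own signal if that is higher. The alternatives were other background corrections, scalings, filters, thresholds and variance priors, the deposited log2 table, outlier spots left out, a block for the replicate number, each array left out in turn and, chosen after seeing the data, normexp without spots of bright local background. The tables' own fold changes were not used. The steps were tested on simulated data.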

Additional observations from a re-analysis of the deposited data

Results flagged for a closer look

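The drought responses of the lines differed, by the test of the difference itself, for 2237 probes called higher and 2281 called lower, as given above. Among the probes named by rule, 22 also had responses over 2-fold in opposite directions, and these are listed as values. Groups of 2 arrays are too small for a check of single arrays.

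With higher signal under drought in Fld and lower in WT, the differences of responses were 5.83 for MICRO.10331.C1 and 5.61 for MICRO.4468.C1 (nitrite reductase), 4.97 for the cellulose synthase-like STMGM17TV, 4.61 for the 1,3-beta-glucanase MICRO.2286.C17, and 4.47 for the lipase-like MICRO.4160.C1. They were 4.3 for the glutaredoxin-like bf_mxlfxxxx_0015a10.t3m.scf, 3.45 for the leucine-rich repeat protein MICRO.10912.C1, and 2.75 for 12-oxophytodienoate reductase (MICRO.10473.C1). They were 2.58 for the starch synthase MICRO.13669.C1 and 2.09 for cSTB47J9TH of the abscisic acid list.

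With lower signal under drought in Fld and higher in WT, the differences were -9.2 for asparagine synthetase (MICRO.3150.C2), and -5.71, -5.25 and -5.06 for the lysine-ketoglutarate reductase probes MICRO.7729.C1, MICRO.7180.C1 and MICRO.4464.C2. They were -4.74 for the serpin-like MICRO.9973.C2, -4.66 for UDP-glucose dehydrogenase (bf_mxflxxxx_0025b09.t3m.scf) and -4.57 for MICRO.839.C8 of the pathogenesis-related list. They were -3.43 for STMIQ42TV of the cell wall list, -3.33 for the abscisic acid-responsive MICRO.9286.C1 and -2.47 for thioredoxin 2 (MICRO.8643.C1). They were -2.44 for beta-ketoacyl-ACP synthase II (MICRO.13550.C1) and -2.34 for the glutaredoxin bf_mxflxxxx_0032e01.t3m.scf.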

How the results depend on the processing

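Counts of calls stayed within 1.5 times those reported under all alternatives other than these. With a normexp offset of 50, 1442 probes were higher and 1480 lower, 565 had a larger response in Fld, 66 had opposite responses, and 470 differed between lines in control only. With no minimum difference, 7215 were higher and 6553 lower, and 4412 responses were smaller and 1857 larger in Fld. With the scanner's processed signal, 246 responses were opposite. Called probes were 51% higher after median scaling, 51.7% of those well above background on every array, 51.4% with the negative control filter on all arrays, 52.4% with no minimum difference, and 48.6% to 50.4% when an array was left out.

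List medians moved beyond the replicate SD as follows. With offset 50, they were -0.21 for starch and sucrose, 0.74 for sulphate, 0.28 for pectinesterases, -0.62 for fatty acids and wax, 0.13 for late embryogenesis abundant proteins, -0.61 for pathogenesis-related proteins, -0.33 for abscisic acid and 0.12 for gibberellin. With offset 16, the late embryogenesis abundant median was 0.3 and gibberellin 0.18. With processed signal, they were -0.91 for fatty acids and wax, -0.47 for isoprenoids, 0.72 for late embryogenesis abundant proteins, 0.59 for gibberellin, 0.13 for jasmonate, -0.49 for amino acid transporters and -0.05 for storage proteins. After median scaling, they were 0.81 for light reactions, -0.47 for amino acid synthesis, -0.49 for amino acid degradation, 0.3 for pectinesterases, -0.21 for other cell wall genes, 0.78 for late embryogenesis abundant proteins, 0.78 for ethylene, 0.54 for gibberellin, 0.09 for jasmonate, -0.13 for transcription factors, 0.46 for receptor kinases and -0.47 for amino acid transporters. After cyclic loess, they were 0.89 for late embryogenesis abundant proteins, 0.56 for gibberellin, 0.49 for receptor kinases and -0.43 for amino acid transporters. In the deposited log2 table, they were -0.71 for fatty acids and wax, 0.27 for late embryogenesis abundant proteins and 0.16 for gibberellin. Of probes well above background on all arrays, they were -0.12 for pectinesterases, 0.79 for late embryogenesis abundant proteins and -0.09 for amino acid transporters, and with the negative control filter on all arrays -0.04, 0.79 and -0.09. With an array left out, gibberellin ranged over 0.15 to 0.43, late embryogenesis abundant proteins over 0.39 to 0.72 and receptor kinases over 0.15 to 0.3. The causes were not tested.

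Of 3142 values of the 143 named probes under these alternatives, 0 reversed, 20 (of 8 probes) lost the call, with differences of 0.79 to 0.99, and 4 (of 2 probes) gained it. A change of sign was not counted as reversed where the probe was called under neither setting. Probes named by size had 1 sign over all array combinations, so leaving out an array could not reverse them. The count of 0 was thus partly fixed by the choice of probes. Among the qRT-PCR genes, after median scaling ferredoxin I (MICRO.11295.C1) was at 0.98, ACO1 (MICRO.2939.C2) at 0.94 and psbY (MICRO.5278.C1) at 0.79, none called, and GAST1 (MICRO.11045.C2) was called at 1.24. After cyclic loess psbY was at 0.89 and GAST1, called, at 1.37. With the replicate number as a block, 4525 probes were called, against 4518 without it. Replicate deviations correlated between groups by -0.11 to 0.13, so no pairing was assumed. An alternative chosen after seeing the data, normexp fitted without 3 spots of bright local background, called 4744 probes. A slide effect that differs between lines or with intensity does not cancel in the difference, and with 2 pools per group the spread is estimated from 8 arrays.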

Other observations

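Categories outside the 30 lists are given here as counts over the probes of the study's tables, chosen after their values were seen and without a test of the category. Over all 5217 probes of those tables, 20.9% were called higher and 26.2% lower. The counts are read against these shares and are no independent evidence of direction. Calcium signalling genes had 38 of 72 probes called lower and 6 higher, with median responses of -0.84 in Fld and 0.2 in WT. MAP kinases had 5 of 8 lower and 1 higher, whereas G-protein genes had 10 of 21 higher and 1 lower. Histone H3 probes had 5 of 8 higher and 0 lower, with median responses of -2.03 in Fld and -3.09 in WT.

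Metal transport had 14 of 20 probes higher and 1 lower, and metal acquisition 5 of 5 higher, with median responses of 2.12 in Fld and 0.56 in WT. Nucleotide transporters, several of them described as purine permeases, had 7 of 8 higher and 0 lower. Phosphoenolpyruvate carboxykinase, which feeds gluconeogenesis, had 4 of 6 lower and 0 higher, with median responses of 0.85 in Fld and 2.61 in WT, and subunits of the mitochondrial F1-ATPase had 5 of 9 lower and 0 higher. Cytochromes P450 had 30 of 82 higher and 15 lower.

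POADO59TV, described as a hypothetical protein of tobacco, is placed in the cold stress category, where 3 of 3 probes were called lower (median -6.02). It stood at 10.79 and 10.73 in Fld_D, 6.87 and 6.71 in Fld_C, 16.11 and 16.11 in WT_D, and 5.79 and 5.7 in WT_C. Its responses of 3.97 in Fld and 10.37 in WT made it one of the 5 lowest differences, at -6.4 ± 0.117.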
